A study of Mus musculus with 16 samples.

Results

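Replication-dependent histone genes encode the bulk of the proteins around which DNA is wrapped. The core histones H2A, H2B, H3 and H4 form the nucleosome, and the linker histone H1 binds the DNA between nucleosomes. These genes lie in clusters, are transcribed mainly while DNA is copied, and give messenger RNAs that end in a stem-loop bound by the stem-loop binding protein in place of a poly(A) tail. Neurons of the adult retina no longer divide, and several histone genes are known to give polyadenylated transcripts in cells that have left the cell cycle. The TotalPrep labelling kit named in the labels starts from poly(A) tails, so stem-loop transcripts enter such a measurement poorly.

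The genes were taken as all probes whose gene name in the array annotation begins with HIST and a cluster number from 1 to 4, followed by H. This found 60 of the 25697 probes, for 55 of 17849 genes. Of these, 44 probes for 42 genes were detected, which here means that their detection p-value was below 0.05 in 4 or more arrays of 16, and all values below concern these 44 probes unless others are named. Another 16 probes did not pass, 15 of which were not detected on any array, while H2ac8 was detected on 1 array. Detection on every array held for 35 probes. Most probes belonged to the large cluster on chromosome 13 (33 of 47 detected), followed by the cluster on chromosome 3 (8 of 9) and that on chromosome 11 (3 of 3). The single probe on chromosome 6, for H4f16, was not detected.

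RNA of whole retina came from untreated C57BL/6 mice, an inbred laboratory strain, that carried no introduced genetic change. The 4 groups were aged males (24 months), aged females (24 months), young males (3 months) and young females (3 months), with 4 arrays each. The labels do not say how many mice gave the RNA of 1 array, so p-values measure the spread between arrays, which may in part be technical. Each probe was read as the brightness of labelled complementary RNA on single-colour Illumina BeadChips, and values below are normalised intensities on the log2 scale.

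Mean intensity ran from 158 to 240 per array. The arrays lay on 5 slides. Slide 3 held 4 of the 8 male arrays and 1 of the 8 female arrays, and its arrays had mean intensities of 158 to 180, against 190 to 240 on the others. For aged male 1 the age field reads 12 months, in conflict with its title. The array was kept with the aged males, and results without it are given where it changes a call. All 6 rod markers passed detection. None of the 6 lymphocyte markers did. Markers of the pigment epithelium, the cell layer behind the retina, stood at a summed level of 12.26 to 12.88 in aged males, 10.14 to 11.45 in aged females, 9.52 to 11.42 in young males and 8.48 to 10.64 in young females. Of the 5 measured, 4 rose with age in males at an adjusted p under 0.05. Lens markers ranged from 14.21 to 15.003 in aged males, 12.97 to 14.86 in aged females, 13.97 to 15.24 in young males and 14.50 to 14.85 in young females, with 0 of 6 called in any comparison. Microglial markers stood at 8.64 to 8.92 in aged males, 8.49 to 8.99 in aged females, 8.13 to 8.31 in young males and 8.06 to 8.27 in young females, and 5 of 6 rose with age over both sexes. The part of these other tissues in the histone values was not tested.

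Many histone genes stand in pairs that are transcribed away from each other, so that an H2A and an H2B gene share 1 short stretch of upstream DNA. Of the member genes, 6 such pairs had start sites within 500 bases, and in 4 of them both genes were detected. The stretches between their starts are shown because the aging values of the H2A and H2B partners are set side by side further on. Upstream stretches of H2aw and H3c6 are shown because their probes changed, and that of H4c8 as an H4 example, chosen after its values were seen. Sequences are from RefSeq, build GRCm38.p6, and capitals mark the CCAAT box (CCAAT or ATTGG), the TATA box (TATAAA or TTTATA) and the octamer (ATTTGCAT or ATGCAAAT), each searched on both strands. The 4 stretches between starts are on the plus strand, at chr13:22042950-22043197, chr13:22035644-22035820, chr13:21753913-21754075 and chr13:23574208-23574380 in the order shown. The 250 bases before the start are at chr11:58954435-58954684 (plus strand) for H2aw, chr13:23562386-23562635 (minus strand) for H3c6 and chr13:23530794-23531043 (plus strand) for H4c8.
H2ac11 to H2bc11: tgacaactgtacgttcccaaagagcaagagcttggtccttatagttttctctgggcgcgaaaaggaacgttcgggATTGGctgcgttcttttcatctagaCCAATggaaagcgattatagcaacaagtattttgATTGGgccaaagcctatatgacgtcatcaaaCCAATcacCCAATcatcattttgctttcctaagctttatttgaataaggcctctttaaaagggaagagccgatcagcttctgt
H2ac12 to H2bc12: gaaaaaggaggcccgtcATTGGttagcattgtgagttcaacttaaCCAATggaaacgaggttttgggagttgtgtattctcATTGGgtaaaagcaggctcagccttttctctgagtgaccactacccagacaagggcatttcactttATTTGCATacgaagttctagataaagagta
H2ac15 to H2bc15: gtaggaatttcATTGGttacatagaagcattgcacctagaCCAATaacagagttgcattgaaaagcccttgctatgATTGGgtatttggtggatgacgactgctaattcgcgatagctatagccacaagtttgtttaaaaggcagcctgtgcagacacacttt
H2bc7 to H2ac7: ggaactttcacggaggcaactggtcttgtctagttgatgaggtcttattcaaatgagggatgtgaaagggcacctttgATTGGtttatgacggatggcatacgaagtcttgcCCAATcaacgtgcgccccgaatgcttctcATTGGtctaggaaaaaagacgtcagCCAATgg
H2aw: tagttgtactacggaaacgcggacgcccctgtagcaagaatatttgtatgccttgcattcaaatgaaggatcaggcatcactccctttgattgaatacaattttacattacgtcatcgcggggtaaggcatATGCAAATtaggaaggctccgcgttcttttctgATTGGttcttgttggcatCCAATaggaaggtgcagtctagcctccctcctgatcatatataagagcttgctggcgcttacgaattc
H3c6: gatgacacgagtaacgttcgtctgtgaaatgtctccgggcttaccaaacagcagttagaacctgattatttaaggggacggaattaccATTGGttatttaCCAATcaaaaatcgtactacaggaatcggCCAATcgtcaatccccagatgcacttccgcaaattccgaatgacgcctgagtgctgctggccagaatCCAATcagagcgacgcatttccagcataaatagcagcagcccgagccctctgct
H4c8: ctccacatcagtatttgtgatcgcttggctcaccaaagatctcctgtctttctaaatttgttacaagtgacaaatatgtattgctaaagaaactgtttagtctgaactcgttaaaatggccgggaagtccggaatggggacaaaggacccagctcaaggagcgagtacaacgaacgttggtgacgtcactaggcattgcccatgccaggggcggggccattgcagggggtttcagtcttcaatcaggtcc

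The CCAAT box, bound by the factor NF-Y, occurred 5 times between H2ac11 and H2bc11, 3 times between H2ac12 and H2bc12, 3 times between H2ac15 and H2bc15 and 4 times between H2bc7 and H2ac7. Over windows from 250 bases before to 50 after the start, which were found for 50 of the 55 genes, it was in 42 (84%), against 37.9% of 27025 promoters. All windows of H1, H2A, H2B and H3 genes held it, but only 2 of 10 of H4 genes. The octamer, the motif read by the factor Oct-1 in histone promoters, was in 13 of 50 (26%), against 1.75% of all promoters. These 13 were 7 of 15 H2A and 6 of 12 H2B windows. The TATA box was in 30 of 50 (60%), against 14.2%. A match describes letters and not a bound site.

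Coding sequences within a histone type are near copies of each other, and the probe sequences were not used here. A probe named for 1 gene may therefore also read its copies. Probe brightness also depends on the probe, so levels of different probes are given but not compared.

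**Figure D1:**
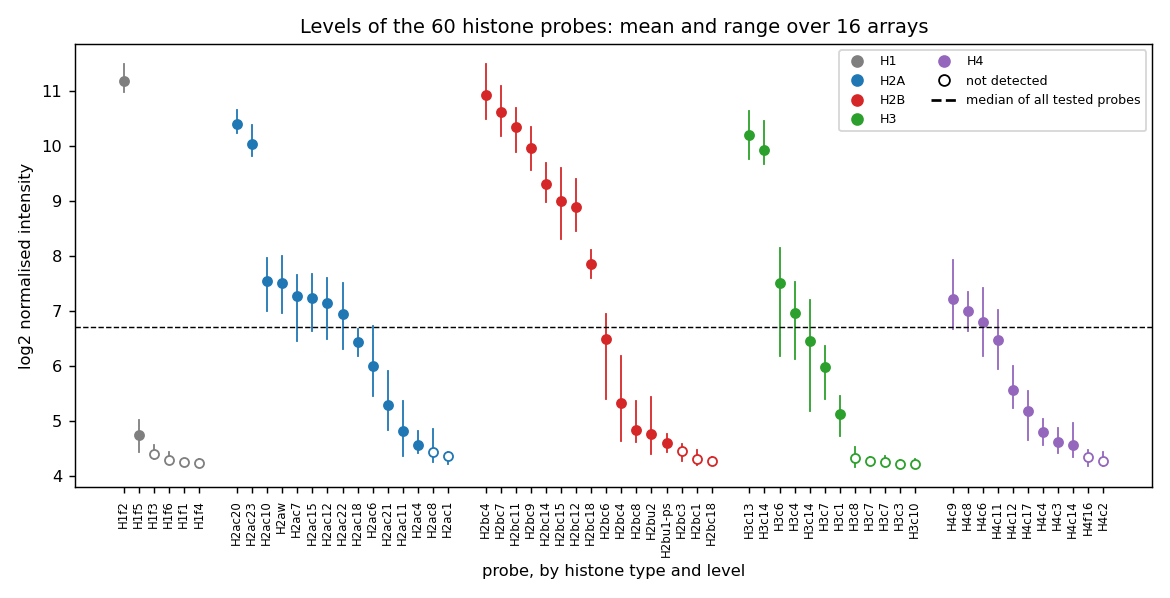
Normalised intensity (log2) of the 60 histone probes by type, with the mean (point) and range (line) over 16 arrays and the median of all tested probes (dashed line). Filled points are the 44 detected probes and open points the 16 that were not. Detected probes make up 2 of 6 for H1, 13 of 15 for H2A, 13 of 16 for H2B, 7 of 12 for H3 and 9 of 11 for H4.

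With age, 1 histone probe rose and 1 fell in males, and none passed the test in females. In males 2 of 44 probes (H2aw up, H2ac7 down) had an adjusted p under 0.05, against 0.992% of the 15016 probes tested. In females it was 0 of 44, against 0.633%. Over both sexes H2aw rose and H2ac7 and H2ac12 fell, 3 of 44 against 1.88%. At an unadjusted p under 0.05 the counts were 14 of 44 in males, against 14.6% of all probes tested, 8 of 44 in females, against 7.14%, and 14 of 44 over both sexes, against 11.1%. All these p-values come from limma, adjusted by the Benjamini-Hochberg method over all probes tested.

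The median change of the 44 probes with age was 0.02 in males, against -0.02 over all probes tested. Their values lay below 0 for 20 probes in males, against 55.9% of all probes. In females the median was -0.13, against 0.00 over all probes, and 31 probes lay below 0, against 50.3%. Over both sexes 29 did, against 54.4%, with a median of -0.06. The comparison over both sexes uses the same arrays as the separate ones. As whole retina was measured, fewer cells of a type and less RNA per cell cannot be told apart.

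H2aw, an H2A gene of the small cluster on chromosome 11, had 7.78, 7.51, 7.996 and 7.78 in aged males, against 7.01, 6.97, 7.13 and 7.17 in young males. In aged females it had 7.83, 7.99, 7.69 and 7.93, against 7.63, 7.04, 7.41 and 7.31 in young females. The aged arrays lay above the young ones of the same sex without overlap in both sexes. H2aw was 1.62-fold higher in aged than in young males, a log2 change of 0.70 ± 0.12 (SE, adjusted p = 0.00612). In females the change was 0.51 ± 0.12 with an adjusted p of 0.0668, which missed the threshold. Over both sexes it was 0.60 ± 0.08 (adjusted p = 0.000408). Within slides the change was 0.77 on slide 1 and 0.61 on slide 3 for males, and 0.06 on slide 2 and 0.52 on slide 4 for females. The 2 H2B probes of the same cluster were H2bu2 and H2bu1-ps, a transcribed pseudogene. They stood at 0.27 ± 0.20 and 0.05 ± 0.08 in males and 0.14 ± 0.20 and 0.10 ± 0.08 in females. Neither was called. Both were dim, with means of 4.76 and 4.59, and each was detected on 9 arrays. H2bu2 was detected on 4 arrays of aged males, 0 of young males, 3 of aged females and 2 of young females. For H2bu1-ps these counts were 2, 1, 4 and 2. So close to the detection limit, their values do not show that these neighbours of H2aw stayed unchanged.

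H2ac7, an H2A gene of the chromosome 13 cluster, had 6.94, 7.22, 6.45 and 6.75 in aged males, against 7.40, 7.39, 7.52 and 7.28 in young males. It had 7.55, 7.25, 7.27 and 7.31 in aged females, against 7.59, 7.34, 7.66 and 7.53 in young females. The male groups did not overlap, and the female groups did. The change was -0.56 ± 0.13 in males (adjusted p = 0.0442), -0.19 ± 0.13 in females (adjusted p = 0.862) and -0.37 ± 0.09 over both (adjusted p = 0.0429). Both calls were lost with slide as a fixed block, at adjusted p of 0.0899 in males and 0.109 over both sexes. Both stayed with slide as a random block, at 0.0365 and 0.035. Leaving out any 1 of 10 arrays ended the male call, and any 1 of 12 the call over both. Within slides the male change was -0.45 on slide 1 and -0.57 on slide 3.

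H2ac12, from the same cluster, had 6.91, 7.04, 6.49 and 6.65 in aged males, against 7.14, 7.30, 7.12 and 7.07 in young males. In aged females it had 7.39, 6.98, 7.13 and 7.06, against 7.51, 7.44, 7.60 and 7.46 in young females. Neither pair of groups overlapped. The change was -0.38 ± 0.11 in males (adjusted p = 0.123) and -0.36 ± 0.11 in females (adjusted p = 0.28). Over both sexes it fell by 0.37 ± 0.08 on the log2 scale (adjusted p = 0.0174). The call was lost under median scaling (adjusted p = 0.0715) and with slide as a fixed block (adjusted p = 0.0522). With slide as a random block it stayed (adjusted p = 0.0137).

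**Figure D2:**
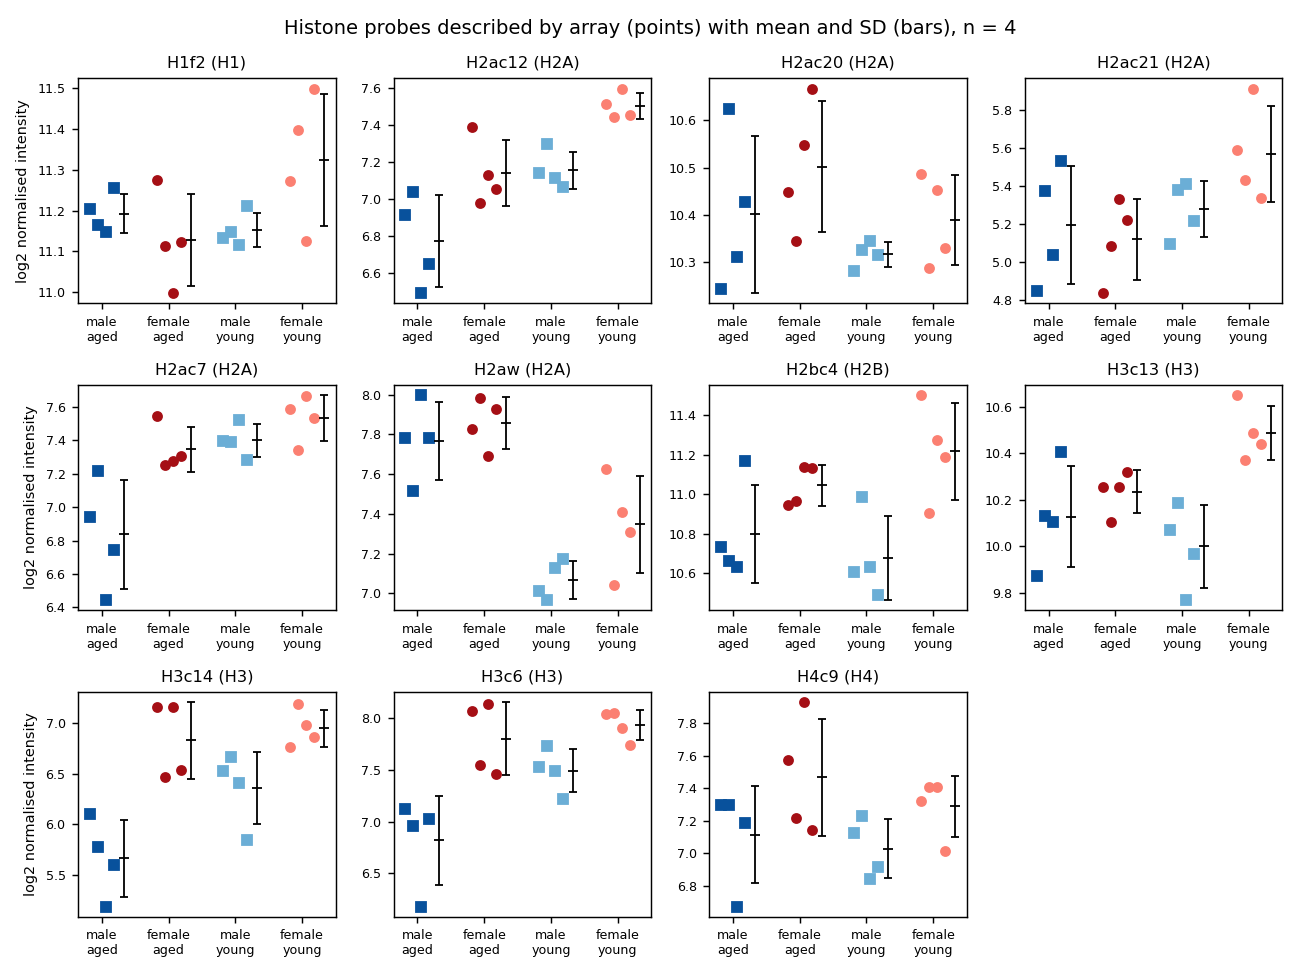
Normalised intensity (log2) on each of the 16 arrays for the 11 histone probes described one by one, with group mean and SD (n = 4). H2aw is higher in both aged groups, and H2ac7 and H3c6 are lowest in aged males.

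H2A probes of the chromosome 13 cluster lay lower with age in 8 of 9 cases in each sex, with a median of -0.32 in males and -0.20 in females. In males 6 of these 9, and in females 4, had an unadjusted p under 0.05, and 1 in males passed the adjusted threshold. Over all probes tested, 55.9% lay below 0 in males and 50.3% in females, 14.6% and 7.14% had an unadjusted p under 0.05, and 0.992% passed the adjusted threshold in males. The exception was H2ac23, at 0.04 ± 0.09 in males and 0.21 ± 0.09 in females. On aged male 3, an array of slide 3, 8 of these 9 probes had their lowest value of all 16 arrays, and on young female 3, 6 of 9 had their highest. H2ac21, an H2A gene of the chromosome 3 cluster, had 4.85, 5.37, 5.04 and 5.53 in aged males, against 5.10, 5.38, 5.41 and 5.22 in young males. It had 4.84, 5.09, 5.33 and 5.22 in aged females, against 5.59, 5.43, 5.91 and 5.34 in young females. The female groups lay just apart and the male groups overlapped, with changes of -0.45 ± 0.15 in females (adjusted p = 0.371) and -0.08 ± 0.15 in males (adjusted p = 0.847). H2ac20, the H2A probe with the highest mean, had 10.24 to 10.62 in aged males, against 10.28 to 10.34 in young males, and 10.34 to 10.67 in aged females, against 10.29 to 10.49 in young females. All its groups overlapped, and its changes were 0.08 ± 0.09 and 0.11 ± 0.09 in males and females.

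H2B probes moved little with age in males, with a median of 0.04 over 13 probes and 3 below 0. In females the median was -0.15 and 10 of 13 lay below 0. None was called in either sex. H2bc4, the H2B probe with the highest mean, had 10.73, 10.66, 10.63 and 11.17 in aged males, against 10.61, 10.98, 10.63 and 10.49 in young males. It had 10.95, 10.97, 11.14 and 11.13 in aged females, against 11.50, 10.90, 11.27 and 11.19 in young females. Both pairs overlapped, at 0.12 ± 0.14 in males (adjusted p = 0.721) and -0.17 ± 0.14 in females (adjusted p = 0.895). A second H2bc4 probe, ILMN_2677231, was at 0.06 ± 0.25 and -0.01 ± 0.25. H2bc6 stood at the low end of the type in males, at -0.41 ± 0.17 (adjusted p = 0.284), and at 0.10 ± 0.17 in females.

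The 4 divergent pairs had unlike values in males on either side of their shared upstream stretch. H2ac11, H2ac12, H2ac15 and H2ac7 had log2 differences of -0.39, -0.38, -0.41 and -0.56, while their partners H2bc11, H2bc12, H2bc15 and H2bc7 had 0.04, 0.02, 0.17 and -0.03. The H2A value was the lower in 4 of 4 pairs, by a median of 0.48 (range of the difference H2A minus H2B, -0.58 to -0.40). H2ac11 was dim, with a mean of 4.82, and was detected on 13 arrays, 2 of them of aged males. Over all detected probes of chromosome 13 the male medians were -0.32 for H2A and 0.03 for H2B. In females H2A was lower in 2 of 4 pairs, with a median difference of -0.06. For male minus female values the median of H2A minus H2B was -0.13 at 24 months (H2A lower in 4 of 4) and 0.34 at 3 months (H2A higher in 4 of 4), and these comparisons share arrays with those of aging. The difference within pairs was not tested. Of the 8 probes, H2ac7 alone was called for aging in males, and H2ac7 and H2ac12 for aging over both sexes.

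**Figure D3:**
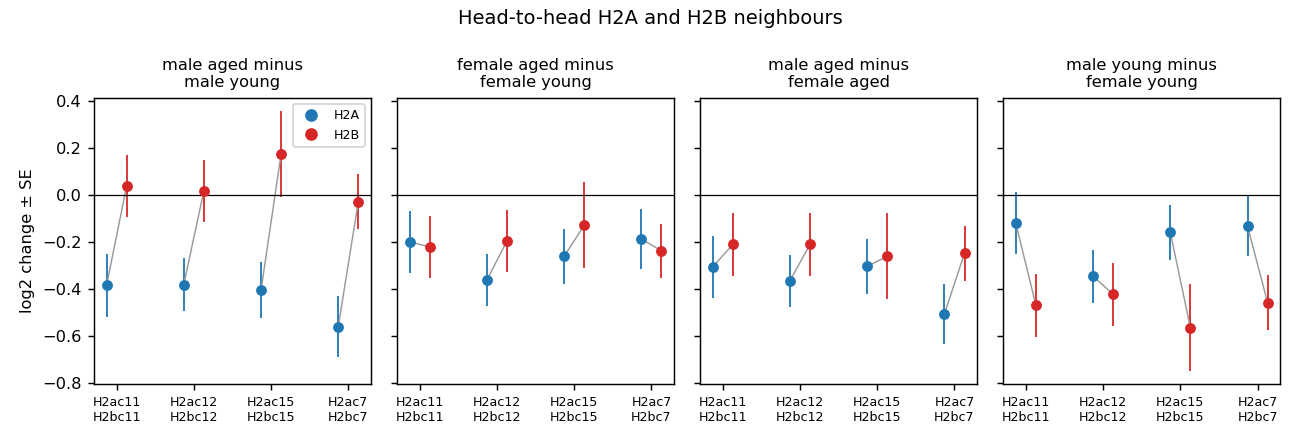
Log2 change ± SE for the H2A and H2B genes (by colour) of the 4 divergent pairs in each comparison, joined by a line within a pair. In aged minus young males the H2A gene lies at -0.56 to -0.38 and the H2B gene at -0.03 to 0.17.

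Of the 7 H3 probes, 5 lay below 0 with age in males and 7 in females, against 55.9% and 50.3% of all probes tested. The 4 of the chromosome 13 cluster did so in both sexes, at a median of -0.33 in males and -0.14 in females. None of these 4 was called. H3c6, one of them, had 7.12, 6.96, 6.18 and 7.02 in aged males, against 7.53, 7.73, 7.49 and 7.22 in young males. It had 8.07, 7.55, 8.14 and 7.46 in aged females, against 8.04, 8.05, 7.90 and 7.74 in young females. The male groups did not overlap, but the change of -0.67 ± 0.19 had an adjusted p of 0.111, and in females it was -0.13 ± 0.19 (adjusted p = 0.954). H3c13, the H3 probe with the highest mean, lies in the chromosome 3 cluster and had 9.87, 10.13, 10.10 and 10.41 in aged males, against 10.07, 10.19, 9.77 and 9.97 in young males. Its values were 10.26, 10.10, 10.26 and 10.32 in aged females, against 10.65, 10.37, 10.49 and 10.44 in young females. The female groups did not overlap (-0.25 ± 0.11, adjusted p = 0.612), and the male ones did (0.13 ± 0.11, adjusted p = 0.618).

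The 2 detected probes of H3c14, also in the chromosome 3 cluster, disagreed. ILMN_3040069 had 6.10, 5.77, 5.18 and 5.59 in aged males, against 6.52, 6.66, 6.41 and 5.85 in young males. It had 7.16, 6.47, 7.16 and 6.54 in aged females, against 6.77, 7.19, 6.98 and 6.86 in young females. Both pairs overlapped, at -0.70 ± 0.21 in males (adjusted p = 0.126) and -0.12 ± 0.21 in females. ILMN_3136540 was at 0.21 ± 0.13 in males and -0.18 ± 0.13 in females. H3c14 is thus reported per probe, and its gene level is uncertain.

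Of the 9 H4 probes, 7 lay above 0 with age in males (median 0.10) and 6 in females (median 0.11), and none was called. H4c9, the H4 probe with the highest mean, had 7.30, 7.30, 6.67 and 7.19 in aged males, against 7.13, 7.23, 6.84 and 6.91 in young males. It had 7.57, 7.21, 7.93 and 7.14 in aged females, against 7.32, 7.41, 7.41 and 7.02 in young females. All of these overlapped, with changes of 0.08 ± 0.17 in males and 0.18 ± 0.17 in females. In males H4c8 was at 0.38 ± 0.11 (adjusted p = 0.123), with 7.04, 7.27, 7.05 and 7.24 in aged males, against 6.92, 6.85, 6.65 and 6.68 in young males, which did not overlap. Aged female 3 had the highest value of all arrays in 6 of the 8 H4 probes of chromosome 13.

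Of the linker histones, H1f2 and H1f5 were detected. H1f2 had 11.20, 11.16, 11.15 and 11.26 in aged males, against 11.13, 11.15, 11.12 and 11.21 in young males, which overlapped. It had 11.27, 11.11, 10.9985 and 11.12 in aged females, against 11.27, 11.40, 11.125 and 11.50 in young females, which also overlapped. Its changes were 0.04 ± 0.08 in males and -0.20 ± 0.08 in females (adjusted p = 0.586). H1f5 was at -0.23 ± 0.10 in males (adjusted p = 0.306) and 0.12 ± 0.10 in females (adjusted p = 0.899). It was dim, with a mean of 4.75, and was detected on 14 arrays.

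**Figure D4:**
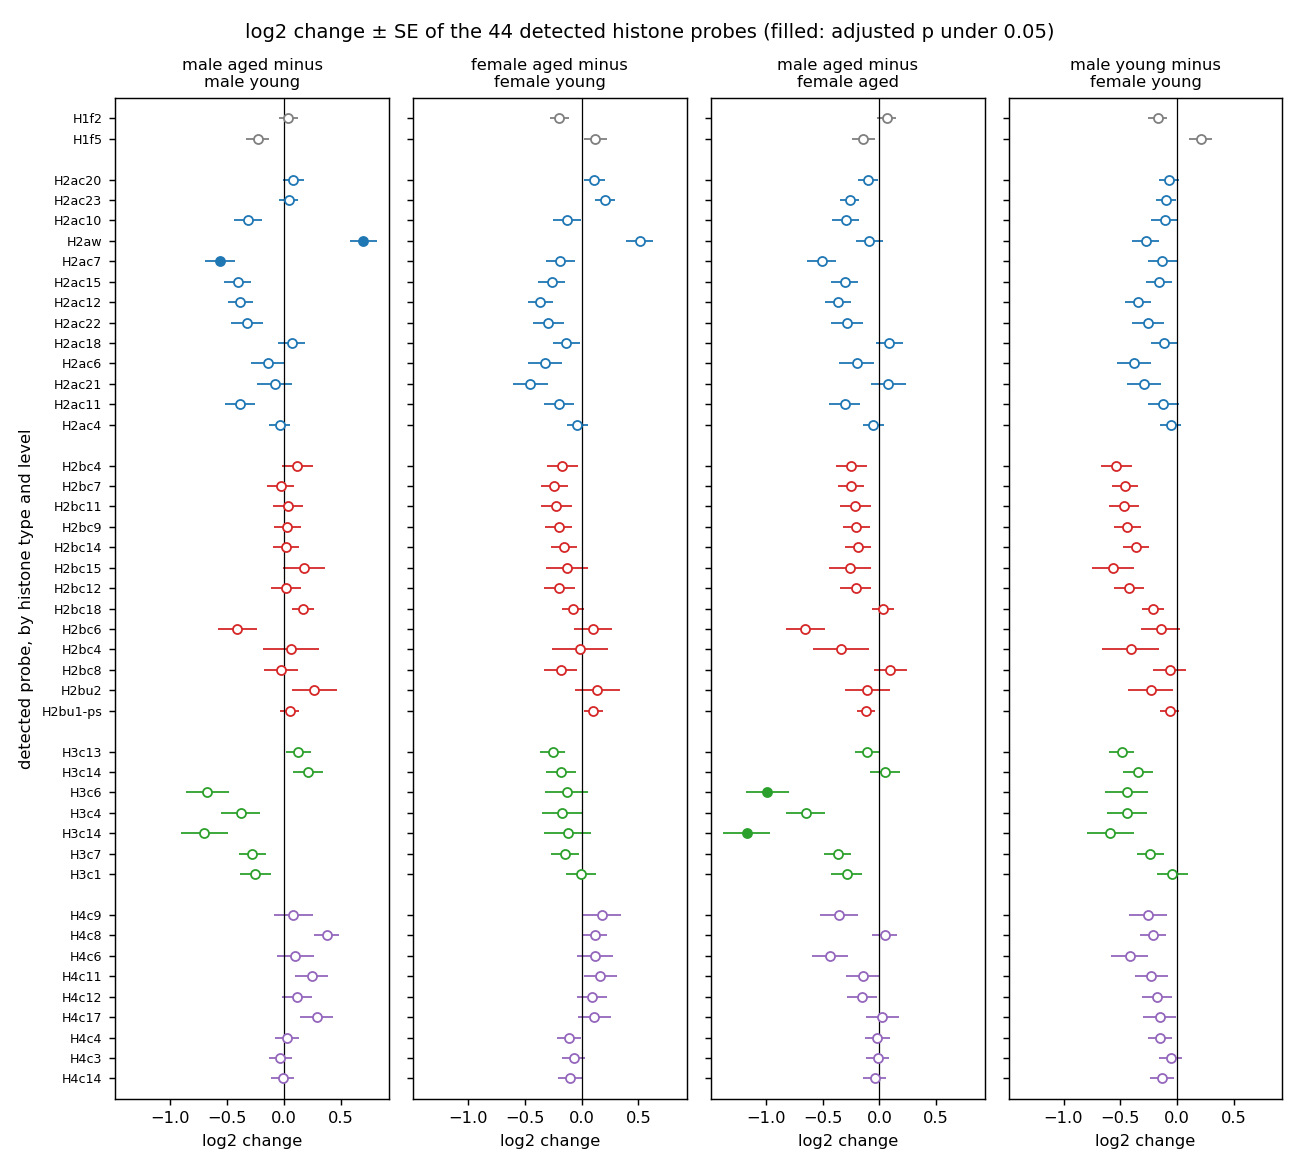
Log2 change ± SE of the 44 detected probes in 4 comparisons by histone type. Filled points mark an adjusted p under 0.05, which are H2aw and H2ac7 in aged minus young males and H3c6 and 1 H3c14 probe in aged males minus aged females.

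Probes whose groups did not overlap were counted in each direction. In males 4 of 44 (9.09%) lay lower with age without overlap, against 5.21% of all probes tested, and 2 (4.55%) higher, against 3.88%. In females 4 (9.09%) lay lower, against 1.53%, and 1 (2.27%) higher, against 2.36%.

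Between the sexes, histone probes were mostly lower in males. At 24 months 2 of 44 probes were called, H3c14 (ILMN_3040069) and H3c6, both lower in aged males, against 0.686% of all probes tested. The median over the 44 was -0.20, against -0.01 over all, and 36 lay below 0, against 51.8%. At an unadjusted p under 0.05 there were 14 of 44, against 12.7%. Without overlap 5 lay lower in aged males, against 3.91%, and 0 higher, against 2.86%.

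H3c14 (ILMN_3040069) was 2.25-fold lower in aged males than in aged females, at -1.17 ± 0.21 (adjusted p = 0.0144), with the array values given above and no overlap. The other H3c14 probe stood at 0.05 ± 0.13. H3c6 was 1.98-fold lower in aged males, at -0.98 ± 0.19 (adjusted p = 0.0229), again without overlap. With slide as a fixed block neither was called, at adjusted p of 0.0888 for H3c14 and 0.11 for H3c6. With slide as a random block both stayed called, at 0.0166 and 0.0274. Within slides the H3c14 difference was -0.72 on slide 1 and -0.94 on slide 4, and the H3c6 difference -0.69 and -0.43. Each call also ended without any 1 of 4 arrays. H2ac7 was at -0.51 ± 0.13 (adjusted p = 0.0945) and H2bc6 at -0.65 ± 0.17 (adjusted p = 0.101), both without overlap and not called.

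The sex difference at 24 months followed type unevenly. The medians were -0.37 for H3, -0.26 for H2A, -0.21 for H2B and -0.04 for H4. All 9 H2A probes of chromosome 13 lay lower in aged males. On slide 1, 36 of the 44 probes lay lower in the aged male (aged male 1) than in the 2 aged females (median -0.17), and on slide 4, 21 of 44 in 1 array against 1 (median 0.03). With slide as a fixed block, 32 of 44 lay lower, with a median of -0.09. Without aged male 1, whose age labels conflict, 3 probes were called and 37 lay lower. The shares over all probes in that fit are not given here. Pigment epithelium markers, given above, were higher in all aged males than in all aged females, and their part in the histone difference was not tested.

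At 3 months none of the 44 probes was called for sex by limma, against 0.393% of all probes tested, yet 43 of 44 lay lower in young males, against 45.7%. The median was -0.23, against 0.02 over all probes. An unadjusted p under 0.05 was found for 17, against 15.6%, and 11 lay lower without overlap, against 3.92%, with 0 higher, against 3.74%. H2B had a median of -0.41 and H3 of -0.44, while H2A was at -0.13 and H4 at -0.18, and every probe of these 4 types lay below 0. H1f5, at 0.21 ± 0.10 (adjusted p = 0.328), was the one probe above 0. Its probe was dim, as given above, and was detected on 4 arrays of young males and 3 of young females.

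H3c13 had the smallest adjusted p at 3 months, with all 4 young males (9.77 to 10.19) below all 4 young females (10.37 to 10.65) and a difference of -0.49 ± 0.11 (adjusted p = 0.0602). H2bc4 followed at -0.54 ± 0.14 (adjusted p = 0.0893), with 1 young male, at 10.98, above 1 young female, at 10.90. H2bc7 was at -0.46 ± 0.12 (adjusted p = 0.0893), with 10.52, 10.69, 10.34 and 10.30 in young males, against 11.10, 10.89, 10.85 and 10.85 in young females, without overlap.

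The values at 3 months were also read by slide. On slide 2, with 1 array each, 39 of 44 lay lower in the young male (median -0.20). On slide 3, with 2 young males against 1 young female, 35 of 44 did (median -0.22). With slide as a block it was 42 of 44 (median -0.22). The median deviation of H2B probes from their means was -0.26 and -0.33 in the young males of slide 3 (replicates 3 and 4) and 0.12 in young female 2 of the same slide. It was 0.38 in young female 1 on slide 2, where 7 of the 10 H2B probes of chromosome 13 had their highest value. By type, 12 of 13 H2B, 7 of 7 H3, 8 of 9 H4 and 7 of 13 H2A probes lay lower in the young males on slide 3. Without young male 2, the only young male on slide 2, 6 probes were called for sex at 3 months. The young males left were then replicate 1 on slide 1 and replicates 3 and 4 on slide 3. The share called over all probes in that fit is not given here.

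**Figure D5:**
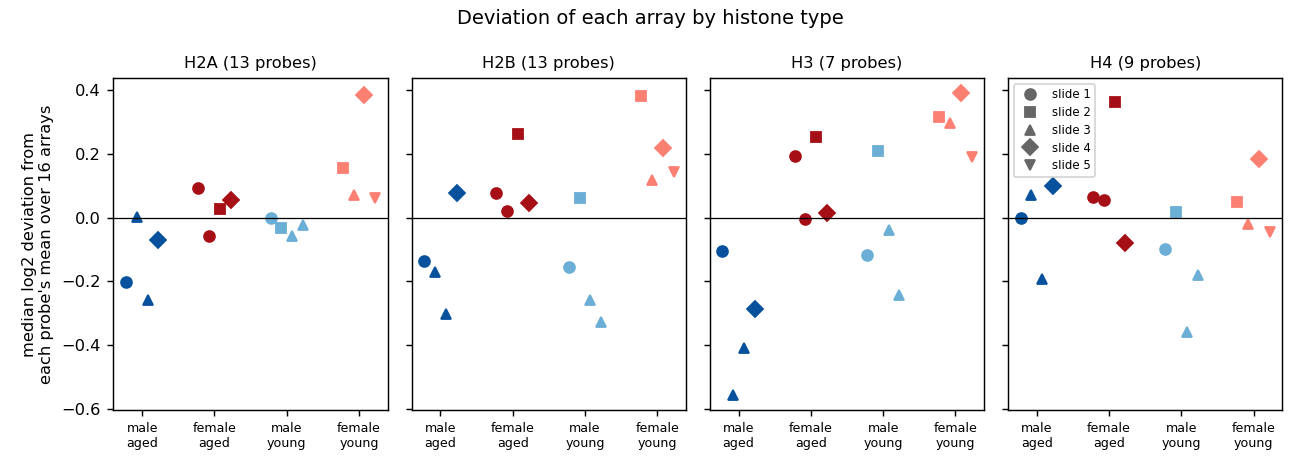
Median deviation (log2) of each array from every probe's mean over 16 arrays, for the detected H2A, H2B, H3 and H4 probes, with groups by colour and slides by marker shape. Young females lie above 0 for H2A, H2B and H3 on all 4 arrays, and aged males lie below 0 for H3 on all 4.

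The aging difference between the sexes, tested as an interaction, was not called for any of the 44 histone probes by limma, and for 0% of all probes tested. The smallest adjusted p among the 44 was 0.509, and 4 had an unadjusted p under 0.05 (H1f5, H2bc6, H3c13 and 1 H3c14 probe), against 9.34%. For H2ac7, called in males and not in females, the interaction was -0.37 with an adjusted p of 0.536, and for H2aw it was 0.19 (adjusted p = 0.714).

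Genes that act on histones or share their timing showed little that passed the test. Of 17 genes of histone mRNA processing and transcription, 12 were measured and none was called in any comparison (median for aging over both sexes -0.01, against -0.01 over all probes). Slbp, which encodes the stem-loop binding protein, was not detected, and Npat, the histone gene activator, was not analysed here. The smallest unadjusted p for aging over both sexes belonged to Zfp473, a zinc finger protein of the 3' end processing complex (0.14 ± 0.09), Upf1, a helicase of mRNA decay (-0.11 ± 0.08), and Lsm10, a subunit of the U7 particle that cuts histone pre-mRNA (0.09 ± 0.08).

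Of 11 histones made independently of replication, 9 were measured, with a median of 0.02 over both sexes. Cenpa, the H3 variant that marks centromeres, fell. It averaged 6.84 ± 0.09 in aged females and 7.33 ± 0.24 in young females (SD, n = 4 each), a change of -0.50 ± 0.10 (adjusted p = 0.0327 in the limma fit). In males it averaged 6.83 ± 0.14 when aged and 7.25 ± 0.06 when young, at -0.43 ± 0.10 (limma adjusted p = 0.0618), and over both sexes -0.46 ± 0.07 (adjusted p = 0.00155). H1f10, a linker histone, at -0.19 ± 0.13, and Macroh2a1, a macroH2A, at -0.09 ± 0.08, had the next smallest p.

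Of 15 histone chaperones, which hand histones to DNA, 10 were measured and none was called (median -0.06). Chaf1a, the large subunit of chromatin assembly factor 1, was at -0.25 ± 0.08 over both sexes (adjusted p = 0.171), Nasp, an H3 and H4 chaperone, at -0.12 ± 0.07, and Hira, which deposits H3.3, at -0.12 ± 0.08. Of 27 genes of S phase and proliferation, 15 were measured and none was called. Over both sexes 11 of the 15 lay below 0, against the 54.4% of all probes, with a median of -0.08. Rrm1, a subunit of ribonucleotide reductase, was at -0.17 ± 0.06 (adjusted p = 0.186), Mcm5, a part of the replicative helicase, at -0.21 ± 0.07 (adjusted p = 0.245), and Cdc20, an activator of the anaphase-promoting complex, at -0.14 ± 0.08. The cycling markers Top2a, Ccna2, Ccnb1, Ccnb2, Rrm2 and Tk1 did not pass detection.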

How the data were processed

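The authors deposited probe intensity values of 25697 probes on 16 arrays, which per the file headers are average signals of the array software's export, with a detection p-value beside each. Between 20.7% and 24.2% of intensities per array were below 0, so background had been subtracted, and mean intensities differed between arrays. A second deposited table held the same intensity values times 1 factor per array (0.821 to 1.25). The genome build of the annotation is not given in the sources used here.

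Groups came from titles, sex and age labels, and slides from array names. Intensities were corrected and normalised with neqc in limma 3.58.1 (R 4.3.3; normexp with controls inferred from detection p-values, offset 16, quantile, log2). The 15016 probes detected at 0.05 in 4 or more arrays entered 1 limma model with 4 group means (12 residual degrees of freedom). Its two-sided p-values were adjusted over all these probes by Benjamini-Hochberg, with calls at 0.05. Aging differences are aged minus young, sex differences male minus female, and summed levels are log2 of summed intensities. All members were named through a RefSeq table.

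Probes described one by one are those called in any comparison, the highest mean of each type, and the 3 smallest p for aging in each sex. From related lists, every called gene and up to 3 with the smallest p for aging over both sexes are named. Each gene of these lists and each marker was read from its tested probe with the highest mean, and other probes of the gene were not counted. Members, lists and rules were chosen with earlier results of these data known. Arrays of a group correlated at 0.983 to 0.995, so none was a copy. With 4 arrays per group their number limits the precision. Among 15016 simulated probes, a small part was given aging in males of log2 0.5, 1, 1.5 or 2. Of these changed probes 62, 98, 98 and 100% were recovered, with 8 false calls among the others. Arrays were simulated as independent and without slides, so these values describe that setting only. Motifs and sequences were read with Python 3.11.15. Alternatives were the background correction, scaling, filter, slide as a fixed or a random block, a replicate block, and each array left out. Deviations of same-numbered arrays correlated at -0.341 to 0.381 over the 16 pairs, above 0.1 for aged male and aged female 1 and 4 only, which share slides 1 and 4. The numbers were therefore not taken to pair the arrays.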

Additional observations from a re-analysis of the deposited data

How the results depend on the processing

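No called change reversed under any alternative. Counts of called histone probes below are given without the count over all probes in the same fit, except for the replicate block in males. The count for aging in males, 2 of 44, was 1 under each of 5 settings: no filter, median scaling, slide as a fixed block, the replicate block and the authors' own scaling. It was 1 to 3 with each array left out, and H2aw remained called throughout (adjusted p at most 0.0348). The H2ac7 call in males was lost in those 5 settings (adjusted p 0.0552 to 0.129) and without any 1 array other than aged males 1 and 2, aged females 1 and 2 and young females 2 and 4 (adjusted p up to 0.156). Over both sexes it was lost without any 1 array other than aged males 1 and 2, aged female 1 and young female 2 (up to 0.1). It was also lost with slide as a fixed block (0.109), the replicate block (0.0767), no filter (0.0873) and median scaling (0.11). The count over both sexes, 3, was 1 under median scaling, 2 with no filter and the replicate block, and 2 to 4 with each array left out. With slide as a fixed block it was 2, H2aw and H2ac11 (0.0289), as H2ac12 was lost too (0.0522). With slide as a random block H2aw, H2ac7 and H2ac12 stayed called and H2ac15 was added (0.035). Aging in females gave 0 to 1 with each array left out, as H2aw was called without aged male 2 or young female 1 (as low as 0.0302). At 24 months the count for sex, 2, was 0 with no filter and with slide as a fixed block, and 0 to 3 with each array left out. H3c14 was lost without aged male 3 or 4 or aged female 1 or 3 (up to 0.0674), and H3c6 without aged male 2 or 3 or aged female 1 or 3 (up to 0.0987). The median at 24 months, -0.20, was -0.091 with slide as a fixed block and 0.026 within slide 4. At 3 months the count was 0 to 6 with each array left out. It was 6 without young male 2, and 1 without aged male 1, aged male 4 or young female 2, among them H3c13 (as low as 0.0316) and H2bc4 (as low as 0.0335). The median for aging in males, 0.02, ran from -0.03 to 0.07 with each array left out. The replicate block, whose numbers do not pair the arrays, moved the calls over all probes for aging in males to 79, against 149 without it. Dim members close to the detection limit and possible binding of a probe to near copies limit what single genes show. Of 60 probes 31 were detected under the stricter rule and 45 under the laxer one.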
